A study of Homo sapiens with 4 samples.

Results

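Cyclic AMP is the second messenger of the gonadotropins in the ovary, and the comparison described here is the expression response of the KGN cell line to 8Br-cAMP, a cell-permeable cAMP analogue, in the presence of a control siRNA. KGN is an established line from a human granulosa cell tumour, and it is used as a model of the cells that surround the oocyte and make oestrogen. One array held cells given 10 nM control siRNA and no analogue (titled siNC), and 1 array held cells given the same siRNA and 8Br-cAMP at 0.5 mM (siNC+8Br-cAMP). The medium was replaced 48 h after transfection and RNA was taken after another 24 h, so the control siRNA, the medium change and the timing were shared by both arrays. The series held 4 arrays, and the other two came from the same line given 5 nM of each of the siRNAs to YAP and TAZ, without the analogue (siYT) and with it (siYT+8Br-cAMP). They serve here as another pair with the analogue as its only labelled difference.

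All probe sets annotated to a single gene symbol were included, which were 41097 of the 54675 on the array. For each of the 19775 genes, the probe set with the highest mean intensity over the 4 arrays, taken before floor and log2, stood for the gene. Intensities below 62.6, the median of the whole table, were set to that floor before log2 was taken. The 13102 genes that exceeded the floor on 1 or both of the control siRNA arrays are called measured genes, and differences are log2 intensity in siNC+8Br-cAMP minus that in siNC. A difference of at least 2-fold was called. With 1 array on each side, the sizes have no replicate check and no test, and the number of arrays limits their precision. In RNA from a whole culture, fewer cells that express a gene cannot be told apart from less RNA per cell.

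In granulosa cells, follicle-stimulating hormone and luteinising hormone bind receptors coupled to adenylyl cyclase, and the cAMP that is formed binds the regulatory subunits of protein kinase A (PKA). The freed catalytic subunits phosphorylate CREB and related factors, which bind cAMP response elements in promoters. Phosphodiesterases degrade cAMP, and the inducible repressor form of CREM, the salt-inducible kinases and some phosphatases limit the signal. Differentiation of granulosa cells along this route is known for aromatase, cholesterol import into mitochondria, inhibin production and withdrawal from the cell cycle. An analogue added to the medium bypasses the receptors.

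The cells carried granulosa markers, with 14 of 17 listed markers above the floor on each of the 2 control siRNA arrays and summed intensities of 129006 and 177317, among them FOXL2, GATA4, WT1, INHBA and KRT18. The brightest of them in siNC were KRT18 at 48635, SERPINE2 at 22627 and FST at 19442, whereas FOXL2 read 659 and GATA4 860. The follicle-stimulating hormone receptor FSHR read 5.03 without and 8.79 with the analogue, and AMHR2 and NR5A1 were also below the floor on both arrays. Of other cell types, 2 of 9 endothelial markers were above the floor on each array, with summed intensities of 527 in siNC and 603 in siNC+8Br-cAMP. Immune markers had 3 of 8 above the floor in siNC and 2 in siNC+8Br-cAMP, summing to 365 and 459, and epithelial markers had 0 and 1 of 7, summing to 139 and 178. CDH5, PTPRC and EPCAM, defining markers of these 3 types, were below the floor on both arrays. Those above it on at least 1 array were the endothelial KDR (287 and 247), PECAM1 (43.5 and 169) and TEK (131 and 45.7). The immune CD79A (117 and 189), CD14 (94.3 and 130) and CD2 (73.5 and 58.0) and the epithelial CLDN4 (19.3 and 70.6) were the others. Markers of other gonadal cells read higher. Of 8 theca or Leydig markers, 4 were above the floor in siNC and 5 with the analogue. Their intensities summed to 13105 and 16663, most of it the collagen gene COL1A2. INSL3 (156 and 69.3), DCN (165 and 279) and PTCH1 (347 and 433) were also above the floor on both arrays. HSD3B2 was above it only with the analogue. CYP17A1, LHCGR and GLI1 were below the floor on both arrays. Of 6 Sertoli markers, 3 and 4 were above the floor. Their intensities summed to 25765 and 11870.0, most of it the junction gene CLDN11 at 25029 and 11099. SOX9 (271 and 386) and PTGDS (419 and 256) were also above the floor on both arrays, and CITED1 only with the analogue. DMRT1 and DHH were below the floor on both. The part of these markers in the results was not tested. The 4 arrays had median intensities of 56.9 to 66.3, and the ratio of the 3' to the 5' probe set for ACTB ranged from 1.07 to 1.14 on the 3 arrays other than siYT+8Br-cAMP, where it was 1.35. The siRNA targets read as labelled: YAP1 was 4915 and 4772 on the control siRNA arrays against 1295 and 1412 on the others, and WWTR1, which encodes TAZ, was 5366 and 7048 against 1028 and 1154.

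With 8Br-cAMP, 628 genes (4.79% of the measured genes) were at least 2-fold higher and 755 (5.76%) at least 2-fold lower. The median difference over all measured genes was 0.02, with quartiles of -0.37 and 0.36, so most genes lay well inside the 2-fold limits. Among the larger differences, 97 genes were at least 4-fold higher and 60 at least 4-fold lower, and 23 at least 8-fold higher and 5 at least 8-fold lower. Of the genes called higher, 115 were at the floor in siNC, and of those called lower, 76 were at the floor with the analogue. For these the fold is a lower bound. When the probe sets of a gene were averaged in place of taking the brightest, 374 genes were called higher and 427 lower. As a measure of technical agreement within the pair, the differences of probe sets of the same gene spread around their gene's mean with an SD of 0.38 over 8651 probe sets of 3433 genes at more than 4 times the floor. That spread includes transcript forms and probe quality, and it holds no variation between cultures.

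**Figure D1:**
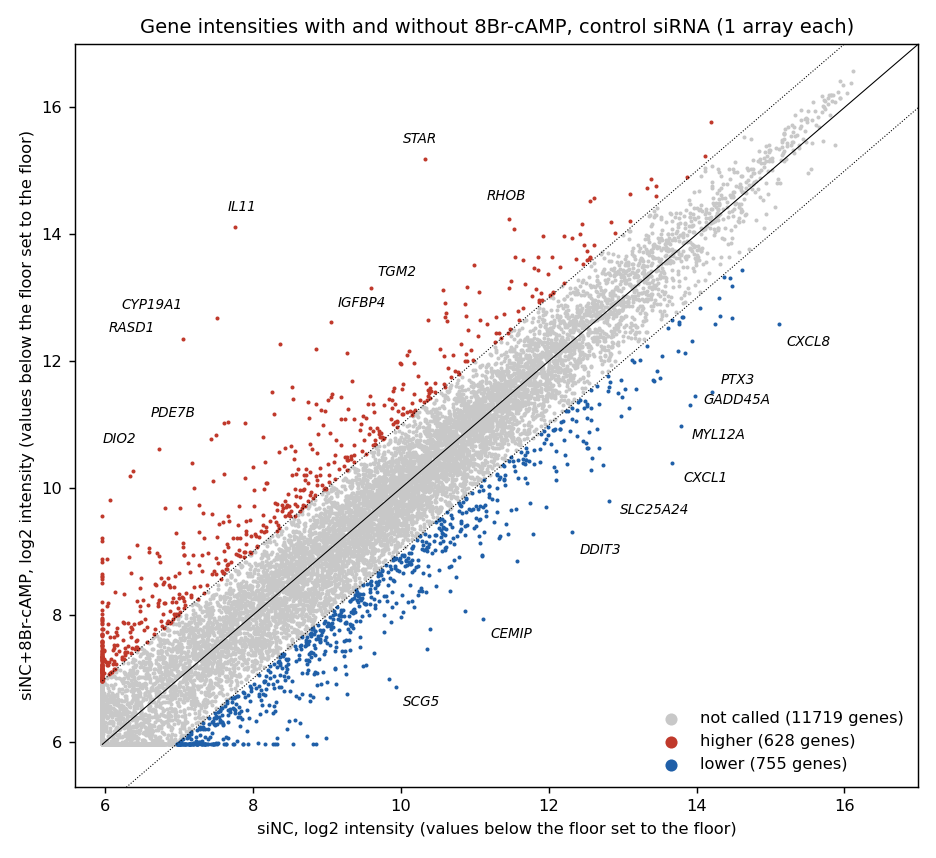
Log2 intensity of each measured gene in siNC (horizontal) against siNC+8Br-cAMP (vertical), with values below the floor drawn at the floor and dotted lines at 2-fold. The labelled genes furthest from the diagonal include IL11, CYP19A1 and STAR above it and CXCL1 and DDIT3 below it.

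The steroidogenic genes held some of the largest differences. STAR, which carries cholesterol to the inner mitochondrial membrane, read 1284 without and 37308 with 8Br-cAMP, 29.0-fold higher. CYP19A1, the aromatase that makes oestrogen from androgen, read 184 without and 6558 with 8Br-cAMP, 35.7-fold higher. CYP11A1, which cleaves the cholesterol side chain in the first step of steroid synthesis, read 81.4 without and 1171 with 8Br-cAMP, 14.4-fold higher. These are the transporter and the enzymes at the entry and the oestrogen-forming end of the pathway. A further CYP19A1 probe set lay below the floor in siNC and at 357 with the analogue, while its remaining 5 probe sets were below the floor on both arrays. HSD3B2, which converts pregnenolone to progesterone, was below the floor in siNC, at 36.9 and 364, at least 5.81-fold higher.

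Of 23 measured genes on the steroidogenesis list, 6 were called higher and 1 lower, with a median of 0.25, beside 4.79% and 5.76% called and a median of 0.02 over all measured genes. The other two called higher were the aldo-keto reductases AKR1C2, 3.22-fold higher at 2824 and 9082, and AKR1C1, 2.31-fold higher at 6296 and 14533. These reductases have near-identical coding sequences, so their probe sets may share signal, and AKR1C3 differed by 0.61. HSD17B11, a steroid dehydrogenase, was 2.45-fold lower at 2078 and 847. The electron donors of the pathway were not called, with differences of 0.73 for FDX1 and 0.81 for POR. CYP17A1, the androgen-forming enzyme of theca cells, was below the floor on both arrays, as were 11 listed genes in all.

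**Figure D2:**
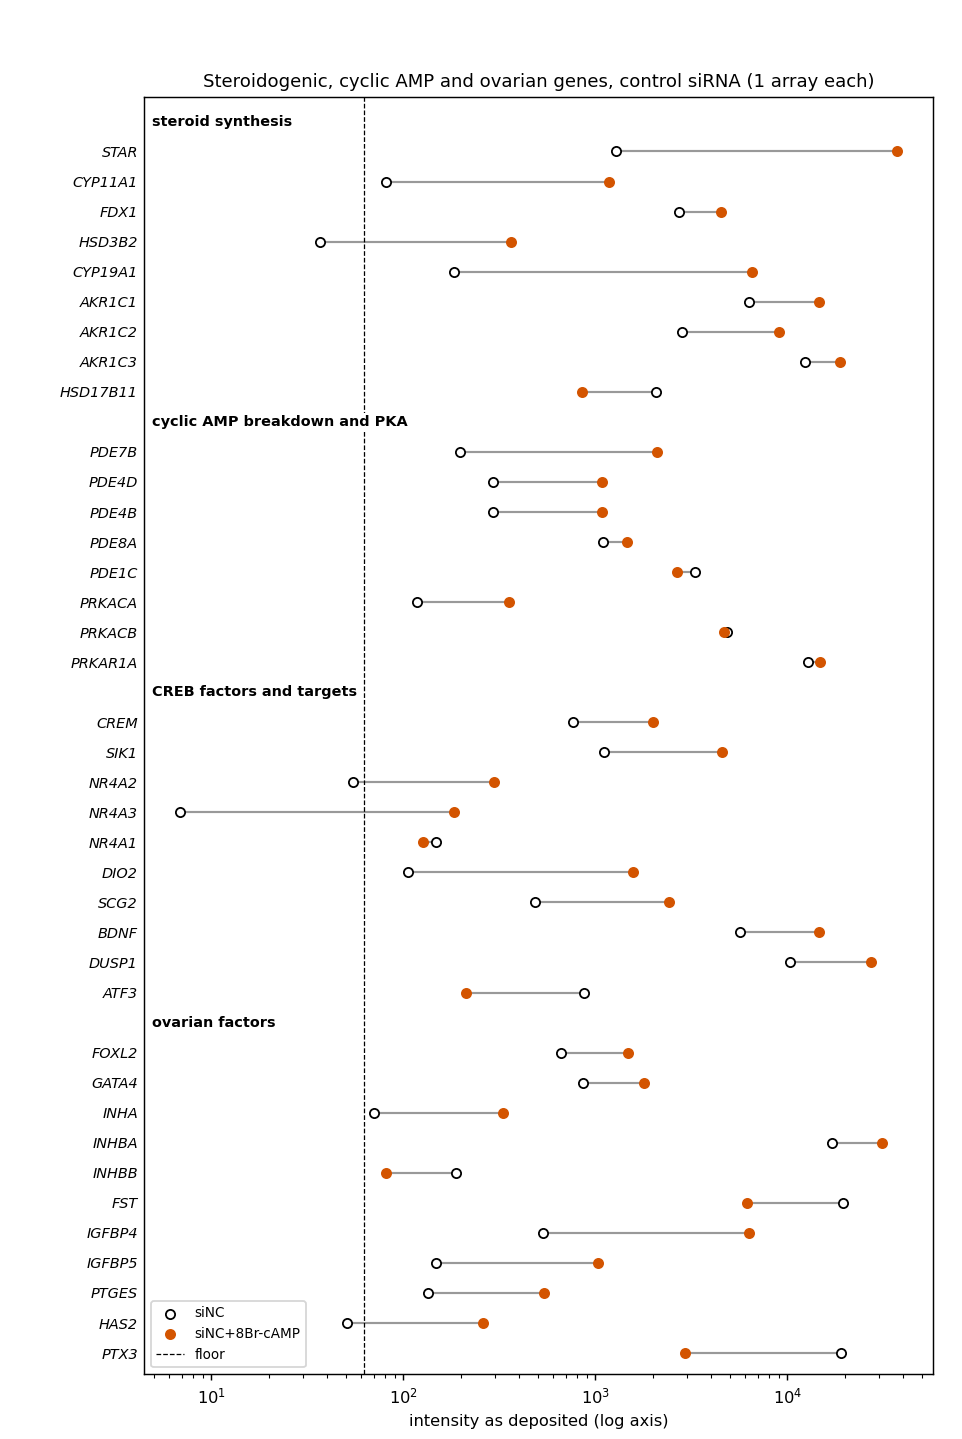
Intensity on a log axis of ovarian, steroidogenic and cAMP-pathway genes in siNC and siNC+8Br-cAMP, 1 line per gene with 1 point per array and the floor at 62.6 dashed. Of the genes drawn above the floor on both arrays, CYP19A1 and STAR have the widest gaps, and INHBB, FST and PTX3 are lower with the analogue.

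Of 29 genes that supply cholesterol, 1 was called higher and 5 lower, beside 4.79% and 5.76% of all measured genes, with a median of -0.17. LSS, which closes the sterol ring, was among the lowest genes at 3534 and 624, 5.66-fold lower. STARD4, a cholesterol transfer protein, was 2.91-fold lower at 1569 and 539.7. The synthesis enzymes HMGCS1, ACAT2 and FDPS were 2.20-fold, 2.20-fold and 2.04-fold lower. The hormone-sensitive lipase gene LIPE, which releases stored cholesterol, was the 1 called higher, at 44.8 and 157, at least 2.50-fold. SCARB1, the lipoprotein receptor, SQLE, an oxygenase of sterol synthesis, and NPC2, a lysosomal cholesterol carrier, differed by 0.24, -0.09 and 0.20, which are under the spread between probe sets of a gene.

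Among genes that form or sense cAMP, the 22 measured members had 1 called higher and 0 lower, beside 4.79% and 5.76% of all measured genes, and a median of -0.20. The exception was PRKACA, a catalytic subunit of PKA, at 117 and 356, 3.05-fold higher, but its other probe set differed by 0.41. The regulatory subunit PRKAR1A and the catalytic subunit PRKACB differed by 0.21 and -0.06. Of the cAMP-degrading enzymes, 3 of 10 were called higher and 0 lower, with a median of 0.34 and the same background. PDE7B read 196 without and 2086 with 8Br-cAMP, 10.6-fold higher, and its other probe sets differed by 2.39 and 1.61. PDE4D read 292 and 1084 and PDE4B 291 and 1084, each 3.72-fold higher. Both belong to the PDE4 class, which PKA itself can activate.

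Of 31 measured CREB-family factors and targets, 12 were called higher and 3 lower, beside 4.79% and 5.76% of all measured genes, with a median of 0.22. SIK1, a kinase that holds CREB coactivators in the cytoplasm, read 1113 without and 4585 with 8Br-cAMP, 4.12-fold higher, while its second and dimmer probe set differed by 0.12. CREM, whose short forms repress cAMP-responsive promoters, read 768 without and 1983 with 8Br-cAMP, 2.58-fold higher, and its other probe sets above the floor on both arrays differed by 0.60, 1.42 and 0.29. The orphan nuclear receptor NR4A2 was below the floor in siNC at 54.4 and 295, at least 4.72-fold higher, and NR4A3 was at 6.87 and 184, at least 2.93-fold higher, while NR4A1 read 147 and 126, a difference of -0.22. At 24 h, NR4A2 and NR4A3 were thus called higher and NR4A1 was not called.

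DUSP1, a phosphatase that inactivates MAP kinases, read 10254 without and 27147 with 8Br-cAMP, 2.65-fold higher, with all 3 of its probe sets above 2-fold. The secretory granule protein SCG2 was 4.97-fold higher at 487 and 2419, RGS2, which speeds the inactivation of G proteins, was 3.70-fold higher at 134 and 496, and the neurotrophin BDNF was 2.58-fold higher at 5691 and 14677. FOS, an early target, was at 53.1 and 144, at least 2.30-fold higher. Other members were lower with the analogue, namely ATF3, a stress-responsive repressor, 4.12-fold lower at 875 and 212, and the zinc finger factor KLF4, 2.81-fold lower at 712 and 254. The coactivator gene CREBBP was 2.54-fold lower on its brightest probe set, but the differences on other probe sets, below the floor in siNC, were 0.36 and 1.25.

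The promoters of 4 of the genes that were called higher are shown because each holds the full cAMP response element, TGACGTCA, in the 250 bases before an annotated start. For CREM the element lies before 1 of 7 listed starts and for DIO2 before 1 of 2, and the other windows lack it, while DUSP1 and PDE7B have 1 listed start each. The sequences are from RefSeq on GRCh38.p14, written 5′ to 3′ on the gene's own strand, with TGACGTCA and the shorter TGACG or its reverse complement CGTCA in capitals.
CREM: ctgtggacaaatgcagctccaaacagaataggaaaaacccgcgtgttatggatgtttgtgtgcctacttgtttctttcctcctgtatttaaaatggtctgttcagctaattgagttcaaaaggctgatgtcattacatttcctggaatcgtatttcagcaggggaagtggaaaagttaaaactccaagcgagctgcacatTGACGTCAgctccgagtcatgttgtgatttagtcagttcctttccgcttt
DIO2: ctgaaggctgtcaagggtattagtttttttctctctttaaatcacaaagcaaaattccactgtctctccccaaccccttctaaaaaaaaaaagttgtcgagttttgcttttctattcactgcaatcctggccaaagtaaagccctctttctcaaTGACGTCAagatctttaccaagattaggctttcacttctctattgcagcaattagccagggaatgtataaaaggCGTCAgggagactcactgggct
DUSP1: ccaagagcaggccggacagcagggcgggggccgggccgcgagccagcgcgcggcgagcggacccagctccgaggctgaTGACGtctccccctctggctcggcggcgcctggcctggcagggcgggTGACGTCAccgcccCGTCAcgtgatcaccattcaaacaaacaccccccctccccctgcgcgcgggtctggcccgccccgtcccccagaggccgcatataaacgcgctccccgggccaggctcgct
PDE7B: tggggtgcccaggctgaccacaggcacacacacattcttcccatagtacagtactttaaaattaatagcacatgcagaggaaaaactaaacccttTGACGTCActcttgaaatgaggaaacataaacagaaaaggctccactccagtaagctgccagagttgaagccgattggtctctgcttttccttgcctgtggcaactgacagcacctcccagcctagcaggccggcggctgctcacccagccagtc
The windows are chr10:35195652-35195901 on the plus strand for CREM, chr14:80212179-80212428 on the minus strand for DIO2, chr5:172771196-172771445 on the minus strand for DUSP1 and chr6:135851451-135851700 on the plus strand for PDE7B. The first base of the element lies 50 bases before that start in CREM, 96 in DIO2, 125 in DUSP1 and 155 in PDE7B. A match describes the letters in this window and is not evidence of binding.

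Across genes, TGACGTCA, which reads the same on both strands, was in 3.29% of the 10629 measured genes with a listed promoter, and in 2.03% of all 27305 genes in the table. It was in 19 of the 509 genes called higher with a promoter (3.73%) and in 16 of the 610 called lower (2.62%). Of the 213 genes that were called higher both here and after YAP/TAZ siRNA, 178 had a listed promoter and 11 of these (6.18%) held it. The shorter TGACG, searched on both strands and contained in the full element, was in 34.4% of the genes called higher, 32.1% of those called lower and 35.1% of the measured genes. The shares in all genes called higher with control siRNA, 3.73% and 34.4%, lay near the 3.29% and 35.1% of the measured genes. The 6.18% in genes called higher in both pairs lay above 3.29% but rests on 11 genes and was not tested. On the CREB list, which holds known targets, the shares were 4 of 24 (16.7%) for the full element and 18 of 24 (75%) for the shorter one. The other genes called higher with the full element were CHMP1B, AHI1, SEMA4C, H2BC12, MOAP1, ST3GAL5, CHPF, B3GAT3, H4C8, CREB3L2, LRRTM2, AVPI1, PTPRU, FRAT1 and TP53INP2.

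Of 19 gonadal transcription factors, 3 were called higher and 1 lower, beside 4.79% and 5.76% of all measured genes, with a median of 0.16. FOXL2, which maintains granulosa identity, read 659 without and 1470.3 with 8Br-cAMP, 2.23-fold higher, and GATA4, which drives gonadal genes including STAR and CYP19A1, read 860.2 and 1785, 2.08-fold higher. CEBPD was at the limit with 2.0-fold, and RUNX2, a factor of the ovulatory follicle, was 2.23-fold lower at 720.3 and 323. FOXL2 and GATA4 were above the floor on all 4 arrays, and in the YAP/TAZ siRNA pair they differed by 1.28 and 0.75.

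The inhibin and activin subunits separated. INHA, the alpha subunit found only in inhibins, read 70.5 without and 331 with 8Br-cAMP, 4.69-fold higher. INHBA, a beta subunit, read 17149.8 and 31170.0, a difference of 0.86 that was not called, and the other beta subunit INHBB was 2.32-fold lower at 189 and 81.4. FST, which binds and neutralises activin, read 19442 without and 6136 with 8Br-cAMP, 3.17-fold lower, and its other probe sets differed by -2.26 and -1.96. The transcripts of the inhibin-specific subunit and of the activin antagonist were thus on opposite sides.

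On the list of hormones and receptors, 8 of 30 were higher and 6 lower, beside 4.79% and 5.76% of all measured genes, and the median was 0.31. Carriers of insulin-like growth factors were among those higher: IGFBP5 read 147 and 1031, 6.99-fold, and IGFBP1 read 1089 and 4389, 4.03-fold. IGFBP4, another such carrier and one of the 20 highest genes, read 531 without and 6269 with 8Br-cAMP, 11.8-fold higher. The receptor IGF1R was 2.27-fold higher, the natriuretic peptide clearance receptor NPR3 was 2.81-fold higher at 1542 and 4334, and the prolactin receptor PRLR was at least 3.02-fold higher from below the floor. EDN2, an endothelin made by granulosa cells at ovulation, was 4.95-fold higher at 81.8 and 405, whereas EDN1 was 2.17-fold lower at 690.1 and 318. The receptors PTGER4 for prostaglandin E2 and OXTR for oxytocin were 3.84-fold and 2.47-fold lower.

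Genes of the ovulatory follicle and cumulus matrix were called in both directions, 5 higher and 5 lower of 26, beside 4.79% and 5.76% of all measured genes, with a median of 0.09 that was below 0 under 4 of the alternatives, including quantile normalization. HAS2, which makes the hyaluronan of the expanding cumulus, was at 51.0 and 259, at least 4.14-fold higher, and VCAN, the proteoglycan that binds it, was 2.05-fold higher at 4251 and 8697. PTGES, which makes prostaglandin E2, and PTGS1, a cyclooxygenase, were 4.04-fold and 3.25-fold higher. In contrast, PTX3, which cross-links hyaluronan in the cumulus, read 18913 without and 2939.6 with 8Br-cAMP, 6.43-fold lower. The epidermal growth factor-like ligand BTC was 4.07-fold lower at 436 and 107, ADAMTS1, a protease that cleaves versican, was 2.71-fold lower at 7851 and 2899.7, and CEMIP, which takes part in hyaluronan breakdown, was 9.0-fold lower at 2214 and 246.

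BMP and TGF-beta signalling had 11 of 28 members higher and 1 lower, beside 4.79% and 5.76% of all measured genes, and a median of 0.36. Ligands called higher were TGFB3 at 90.3 and 386, 4.28-fold, BMP6 at 132 and 314, 2.37-fold, and GDF11, 2.13-fold. Receptors called higher were TGFBR1 at 3588 and 11360.3, 3.17-fold, with its other probe sets at differences of 1.24 and 1.87, as well as TGFBR2, 2.10-fold, and BMPR1B, 2.19-fold. The inhibitor-of-differentiation genes ID1 to ID4, which are standard BMP targets and block basic helix-loop-helix factors, were each called higher. ID1 read 1668 and 4405, 2.64-fold; ID2 read 5603 and 18461, 3.30-fold; ID3 read 4217 and 12824, 3.04-fold. ID4 was 3.06-fold higher at 1049 and 3209.7, and the feedback inhibitor SMAD6 was 2.21-fold higher. GREM1, a secreted BMP antagonist, was the 1 called lower, 4.79-fold at 353 and 73.7, and SMURF2, a ubiquitin ligase that acts on this pathway, was 6.04-fold lower at 15397 and 2550.4, with differences of -1.41, -1.04 and -2.23 on its other probe sets.

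In the YAP/TAZ siRNA pair, ID1 and ID3 differed by 1.26 and 1.01, and ID2, ID4 and TGFBR1 by -0.07, -0.18 and -0.19, while the list had 4 called higher and 3 lower, beside 5.19% and 10.8% of the measured genes there. Whether the pairs differ for these genes was not tested. On the Wnt and Notch list, 4 of 30 were higher and 1 lower with control siRNA, beside 4.79% and 5.76% of all measured genes, with a median of 0.13. The secreted Wnt inhibitor SFRP1 was 5.18-fold higher at 520.2 and 2694, the receptor FZD4 was 3.30-fold higher, the ligand WNT2B was 3.17-fold higher and the receptor NOTCH3 was 2.13-fold higher. The Notch ligand JAG1 was 2.32-fold lower at 3915 and 1686.

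**Figure D3:**
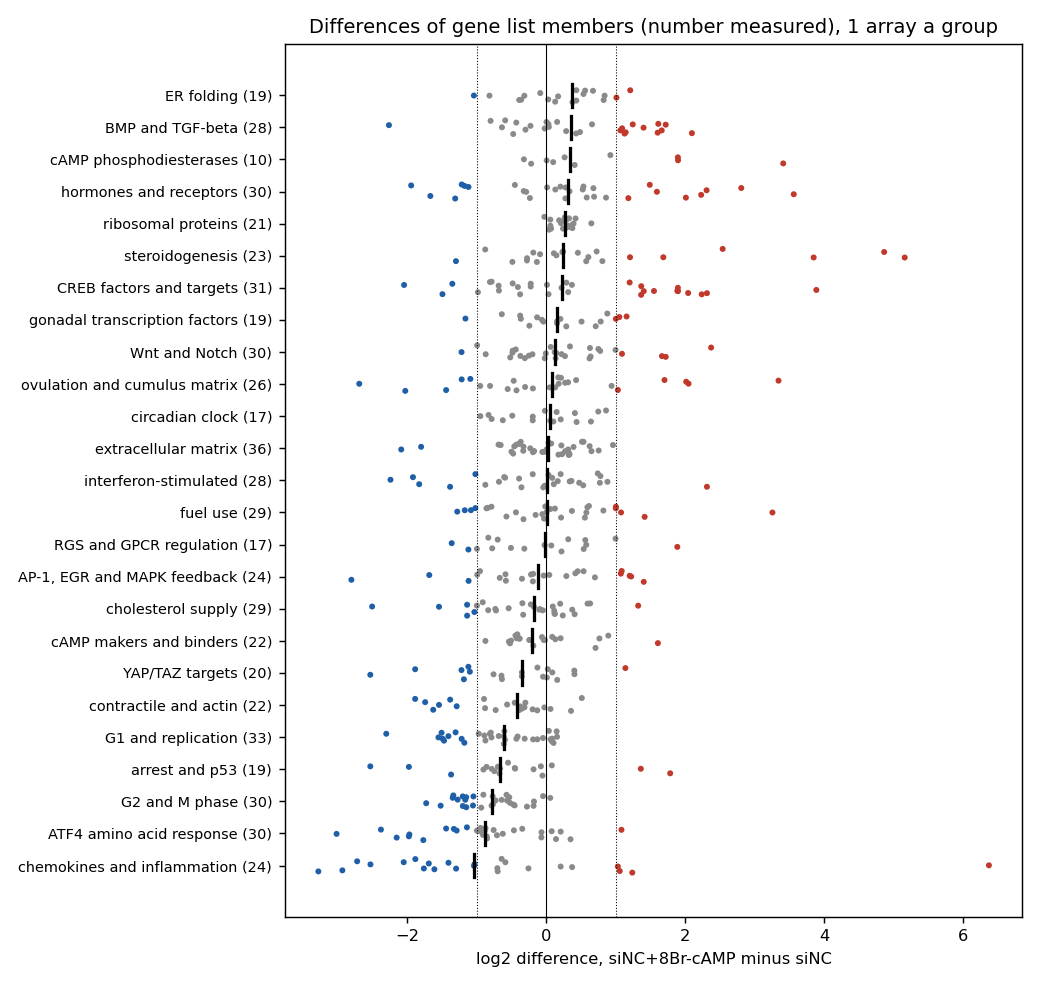
Log2 difference between siNC+8Br-cAMP and siNC for every measured member of each gene list, 1 point per gene, with the list's median marked and dotted lines at 2-fold. The medians run from -1.03 for chemokines and inflammation to 0.38 for ER folding, and all 25 list medians lie between these values.

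The widest difference was that of IL11, a cytokine of the interleukin-6 family counted on the inflammation list, which read 216 without and 17829 with 8Br-cAMP, 82.5-fold higher, and its second probe set read 78.7 and 1048, a difference of 3.74. RASD1, a small G protein of the Ras family, was second at 133 and 5241, 39.3-fold higher. DNAJC12, a co-chaperone, was 14.9-fold higher at 332 and 4954, and DIO2, the deiodinase that activates thyroid hormone, was 14.8-fold higher at 106 and 1566, with all 5 of its probe sets above 2-fold. In the YAP/TAZ siRNA pair, IL11 read 774 without and 42102 with the analogue and DIO2 read 73.4 without and 4576 with the analogue, differences of 5.76 and 5.96.

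TGM2, a transglutaminase, read 772 and 9105, 11.8-fold higher, and its other probe sets differed by 2.83, 2.23 and 0.24, the last of them below the floor in siNC. PDK4, a kinase that shuts down pyruvate dehydrogenase, was 9.54-fold higher at 306 and 2925. ALPL, an alkaline phosphatase, was 8.35-fold higher at 371 and 3097, and GALNT15, which starts O-linked glycans, was 14.8-fold higher at 83.8 and 1244. The protease ADAMTS15 was 10.1-fold higher, the formyl peptide receptor FPR1 10.1-fold, the Ras-family gene DIRAS3 10.4-fold, the microtubule-associated MTUS1 10.0-fold and the non-coding RNA LINC01119 9.34-fold. All 20 of these genes, with IL11 at the top and ALPL at the bottom, were at least 8.35-fold higher.

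The class II antigen presentation genes HLA-DRA, HLA-DMB and HLA-DPA1 were named by their rank, and the others of this kind were looked up after these values were seen, so their counts are a description. Of 17 genes, taken as every HLA-D symbol, pseudogenes included, with CD74 and CIITA, 13 were measured and 4 were at the floor on both arrays. Of those measured, 10 were called higher and 0 lower, beside 4.79% and 5.76% of all measured genes. HLA-DPA1, CIITA, HLA-DOA and HLA-DQA1 were below the floor in siNC and counted as measured only through the array with the analogue. These genes could only read higher, and HLA-DRA was too near the floor in siNC to be called lower. The count of 0 lower was thus partly set by the floor. HLA-DRA, a chain of the peptide-presenting dimer, read 67.5 without and 901 with 8Br-cAMP, 13.3-fold higher. HLA-DMB, which helps to load peptide, was 8.81-fold higher at 239 and 2101, and HLA-DPA1 was at least 7.36-fold higher from 6.16 to 461. HLA-DPB1, HLA-DMA, HLA-DRB1 and the invariant chain CD74 were 7.28-fold, 4.73-fold, 4.28-fold and 3.72-fold higher. CIITA, the transactivator of these genes, was at 22.6 and 219.5, at least 3.51-fold higher. HLA-DOA and HLA-DQA1 were not called, at 14.1 and 97.6 and 3.43 and 83.7. In the YAP/TAZ siRNA pair, HLA-DRA and HLA-DMB differed by 4.01 and 3.49. HLA genes are similar in sequence and their probe sets can share signal, and PTPRC, which marks leukocytes, was below the floor on both arrays.

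Inflammatory genes were the list with the lowest median, -1.03, with 13 of 24 lower and 4 higher, beside 5.76% and 4.79% of all measured genes. CXCL1, a neutrophil chemokine, was the lowest gene measured on both arrays, at 13015 without and 1346 with 8Br-cAMP, 9.67-fold lower. CXCL8 read 35516 and 6171, 5.75-fold lower, CXCL3 was 6.57-fold lower, CCL20 7.61-fold, and CXCL2 3.04-fold. The adhesion molecules VCAM1 and ICAM1 were 4.13-fold and 2.04-fold lower. The cytokine IL32, which is not on the list, was 6.17-fold lower. Of the members called lower, those named here and in the next paragraph were chemokines, adhesion molecules and NF-kappaB genes. The 4 called higher were the cytokines IL11 and IL1B, the chemokine CXCL12 and TNFAIP3, an inhibitor of NF-kappaB.

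Feedback genes of NF-kappaB, the factor that drives many of them, did not point one way. NFKBIA, its cytoplasmic inhibitor, read 4890.4 and 1329, 3.68-fold lower, and the subunits NFKB1, NFKB2 and RELB were 2.45-fold, 3.22-fold and 2.64-fold lower. TNFAIP3, a ubiquitin-editing inhibitor of the same route, was 2.36-fold higher at 5319.6 and 12559. IL1B and CXCL12 were 2.08-fold and 2.05-fold higher, and IL6 read 21840.1 and 28316, a difference of 0.37. In the YAP/TAZ siRNA pair the list had 12 lower and 3 higher, beside 10.8% and 5.19% of the measured genes there. Its median in that pair was -1.0, and NFKB2 differed there by 0.05.

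**Figure D4:**
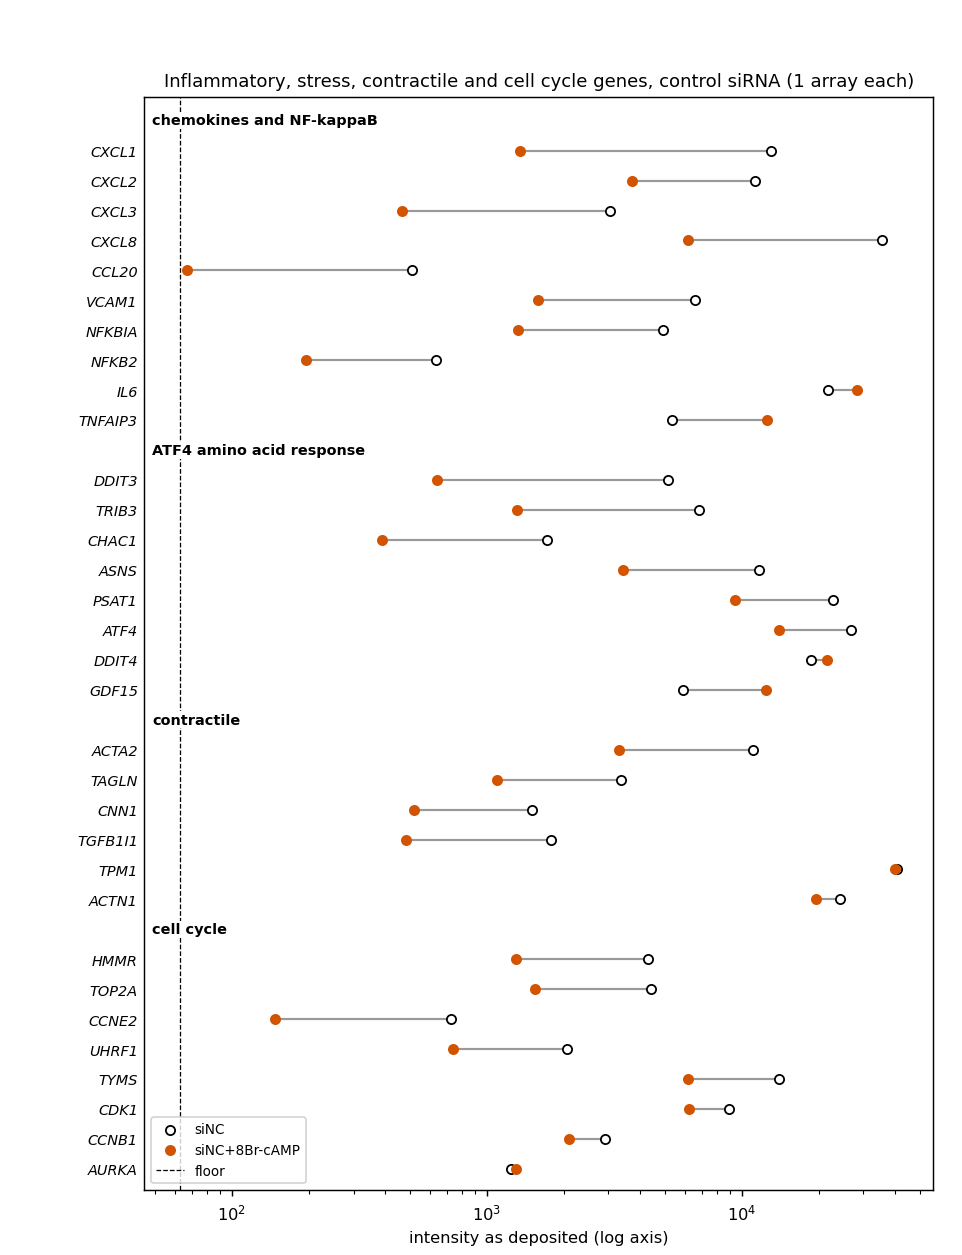
Intensity on a log axis in siNC and siNC+8Br-cAMP for genes of inflammation, stress, contractility and the cell cycle, 1 line per gene with 1 point per array and the floor at 62.6 marked. CXCL1 and DDIT3 show some of the widest gaps, and most genes drawn are lower with the analogue.

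Among AP-1, EGR and MAP kinase feedback genes, 5 of 24 were higher and 3 lower, beside 4.79% and 5.76% of all measured genes, with a median of -0.11. FOSL1, an AP-1 subunit, was 6.96-fold lower at 1866 and 268, EGR1 was 3.20-fold lower at 556 and 173 and the ERK phosphatase DUSP6 was 2.16-fold lower. IER2 and SPRY1, a receptor kinase inhibitor, were 2.12-fold and 2.11-fold higher. PHLDA1 was 2.33-fold higher on its brightest probe set, whereas its other 5 differed by -0.38, -1.21, -0.02, 0.44 and -0.77, so its direction depends on the probe set.

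Contractile and actin genes had 6 of 22 lower and 0 higher, beside 5.76% and 4.79% of all measured genes, with a median of -0.42. ACTA2, smooth muscle actin, read 11044 without and 3311 with 8Br-cAMP, 3.34-fold lower. TAGLN and CNN1, which bind actin filaments, were 3.08-fold and 2.91-fold lower, and SRF, the factor that drives these genes, was 2.60-fold lower at 344 and 132. MYL12A, a regulatory light chain of myosin, was 6.97-fold lower at 14129.7 and 2028, and its other probe sets differed by -1.52, -1.66 and -0.87. TPM1, a tropomyosin, and ACTN1, an actin cross-linker, differed by -0.02 and -0.31. RHOB, an actin-regulating GTPase chosen after its value was seen, was 6.88-fold higher at 2829 and 19469.

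Targets of YAP and TAZ, the coactivators that the other siRNAs were directed at, had 6 of 20 lower and 1 higher with the analogue in control siRNA cells, beside 5.76% and 4.79% of all measured genes, and a median of -0.35. ANKRD1, AJUBA, AMOTL2 and MYOF were 2.27-fold, 2.17-fold, 2.14-fold and 2.32-fold lower. CCN1 and CCN2, matricellular proteins often used as readouts of this pathway, differed by -0.35 and -0.12, and the receptor kinase AXL by 0.01. Among 36 matrix genes, 0 were higher and 2 lower, beside 4.79% and 5.76% of all measured genes, with a median of 0.02. TIMP3, a protease inhibitor, was 4.23-fold lower at 2590.2 and 612, and thrombospondin THBS1 was 3.47-fold lower, with its other probe sets from -2.22 to 0.15, so its size and sign depend on the probe set.

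Of 30 genes of the ATF4 amino acid branch of the stress response, 10 were lower, 1 was higher, beside 5.76% and 4.79% of all measured genes, and the median was -0.88, with 25 of 30 below 0. DDIT3, the stress factor CHOP, read 5119 without and 635 with 8Br-cAMP, 8.07-fold lower, and TRIB3, a pseudokinase it induces, was 5.18-fold lower at 6824 and 1316. CHAC1, which degrades glutathione, was 4.43-fold lower, and the synthesis enzymes ASNS for asparagine and PSAT1 for serine were 3.40-fold and 2.44-fold lower. The driver ATF4 itself read 26799.7 and 13961, 1.92-fold lower and not called. DDIT4 differed by 0.21, and GDF15, a secreted stress cytokine, was 2.12-fold higher at 5872 and 12448.

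In the protein-folding branch, 2 of 19 genes were higher and 1 lower, beside 4.79% and 5.76% of all measured genes, with a median of 0.38. The chaperone partner DNAJB11 was 2.31-fold higher at 5885 and 13612, and HSPA5, the main chaperone of the endoplasmic reticulum, read 27921 and 28528, a difference of 0.03. GADD45A, a growth arrest gene that stress induces, is not on this list. It read 16131 and 2799, 5.76-fold lower, but after YAP/TAZ siRNA it read 3979 without and 7209 with the analogue, a difference of 0.86.

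Cell-cycle genes were mostly lower by moderate amounts. Of 30 genes of G2 and M phase, 12 were called lower and 0 higher, beside 5.76% and 4.79% of all measured genes, and 29 of the 30 were below 0, with a median of -0.78. HMMR, a spindle protein, read 4294 without and 1300.4 with 8Br-cAMP, 3.30-fold lower, TOP2A, the topoisomerase of dividing cells, was 2.86-fold lower at 4397 and 1538, and ANLN, which works in cytokinesis, was 2.21-fold lower. CDK1 and CCNB1, the kinase and cyclin that start mitosis, were not called, with differences of -0.52 and -0.47, and AURKA differed by 0.06.

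Of 33 genes of G1 and replication, 9 were lower and 0 higher against the same background, with 26 below 0 and a median of -0.61. CCNE2, a cyclin of S-phase entry, read 723 and 147, 4.92-fold lower. CDK4 was 2.32-fold lower at 7225 and 3114, while its partner CCND1 differed by -0.31. The replication genes GINS2 and CDC45 were 2.92-fold and 2.83-fold lower, and TYMS, which makes thymidylate, was 2.26-fold lower at 13940.0 and 6175. On the list of arrest and p53 genes, 2 of 19 were called higher and 3 lower, beside 4.79% and 5.76% of all measured genes, with 16 below 0 and a median of -0.66. Among its inhibitors of the cycle, CDKN1C was 3.44-fold higher at 86.6 and 298, but CDKN1A and CDKN1B differed by -0.55 and -0.07. The proapoptotic BCL2L11 was 2.57-fold higher at 519 and 1335 and the antiapoptotic BCL2 was 2.58-fold lower at 323 and 125, with SESN2, a stress-induced sestrin, 3.92-fold lower and GADD45A the remaining member called lower.

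Interferon-stimulated genes had 5 of 28 lower and 1 higher, beside 5.76% and 4.79% of all measured genes, and a median of 0.01. IFIT2 and IFIT3, which bind viral RNA, were 4.71-fold and 3.54-fold lower, and the factor IRF1 was 3.77-fold lower, while the membrane protein IFITM1 read 1554 and 7722, 4.97-fold higher. Fuel-use genes were called in both directions, 5 higher and 4 lower of 29, beside 4.79% and 5.76% of all measured genes, with a median of 0.01. PDK2 joined PDK4 on the higher side at 2.0-fold, with CPT1A, which admits fatty acids to mitochondria, at 2.11-fold and ANGPTL4, a lipase inhibitor, at 2.67-fold. PFKFB3, an activator of glycolysis, and PDK1 were 2.11-fold and 2.02-fold lower.

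None of 17 clock genes and none of 21 ribosomal protein genes were called in either direction, beside 4.79% higher and 5.76% lower of all measured genes. Lists of this size would hold few calls at those shares. The clock median was 0.06. The ribosomal median was 0.28, with 20 of 21 above 0, and 0.03 after quantile normalization. Of 17 regulators of G protein signalling, the 1 called higher was RGS2, and RGS20 and RGS7 were 2.56-fold and 2.17-fold lower. These counts were near the same background, and the list median was -0.02. RGS4 read 6787 and 13567, a difference of 1.00 that stayed just under the limit. The medians of the clock, matrix, fuel-use, interferon, ovulation and G protein regulator lists changed sign under at least 1 alternative, and those of the other lists did not.

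Some genes were read only on 1 of the 2 arrays. Among those at the floor in siNC, HPD, an enzyme of tyrosine breakdown, had the largest bound at 62.2 and 757, at least 12.1-fold higher. CYP26B1, which degrades retinoic acid, was at 4.92 and 599, at least 9.56-fold higher, and the potassium channel KCNK3 was at 18.1 and 578, at least 9.24-fold. TMEM190, the collagen COL15A1, the deacetylase AADAC and TMEM254 followed, from at least 7.6-fold down to at least 6.24-fold. Among those at the floor with the analogue, HSPB3, a small heat shock protein, was at 462 and 4.91, at least 7.38-fold lower, and WFDC21P, the formin DAAM2 and the amino acid transporter SLC38A4 were at least 7.18-fold, at least 5.96-fold and at least 5.12-fold lower. Without probe sets of a shared-sequence suffix, SLC38A4 differed by 0.28 instead. AKNA, SERINC2, CNIH3 and ZNF416 completed the 8, from at least 5.05-fold to at least 3.93-fold. The remaining genes among the 20 lowest were SCG5, a secretory granule chaperone, at 8.31-fold, the mitochondrial carrier SLC25A24 at 8.11-fold, EVI2A at 7.38-fold, ZNF367 at 7.15-fold, GALNT3 at 6.12-fold and NOCT at 5.75-fold.

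Second probe sets gave a check within the same RNA. Of 314 genes called higher that had a second measured probe set, 137 (43.6%) were called higher on it too, 276 (87.9%) had the same sign and 3 were called in the opposite direction. Of 358 genes called lower, 109 (30.4%) were called lower again, 292 (81.6%) had the same sign and 7 were called opposite. Over all 6595 genes with a second probe set, 5.14% of second probe sets were called higher and 6.08% lower. A background for direction alone was not taken, so the same-sign shares cannot be weighed against all genes. A second probe set at the floor in siNC could only read higher, and when at the floor with the analogue only lower. First and second probe sets read the same labelled RNA, so the agreement bears on the probes and not on the culture.

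The pair given YAP/TAZ siRNA shares no array with the control siRNA pair. Of the 628 genes called higher with control siRNA, 213 (33.9%) were also called higher there, beside 5.19% of all measured genes, and 24 were called lower. Of the 755 genes called lower, 303 (40.1%) were also called lower there, beside 10.8% of all measured genes, and 10 were called higher. In direction alone, 456 (72.6%) of the genes called higher were higher there by any amount, beside 44.1% of measured genes, and 618 (81.9%) of those called lower were lower, beside 50.3%. The median of the genes called higher was 1.32 with control siRNA and 0.61 in the other pair, and that of the genes called lower was -1.27 and -0.77. Of the 97 genes at least 4-fold higher, 71 (73.2%) were called higher in the other pair too, and of the 60 at least 4-fold lower, 39 (65.0%) were called lower. Pearson's r between the differences was 0.49 and Spearman's rho 0.43 across the 10791 genes that exceeded the floor on every array, where genes are not independent and all arrays share line and platform.

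**Figure D5:**
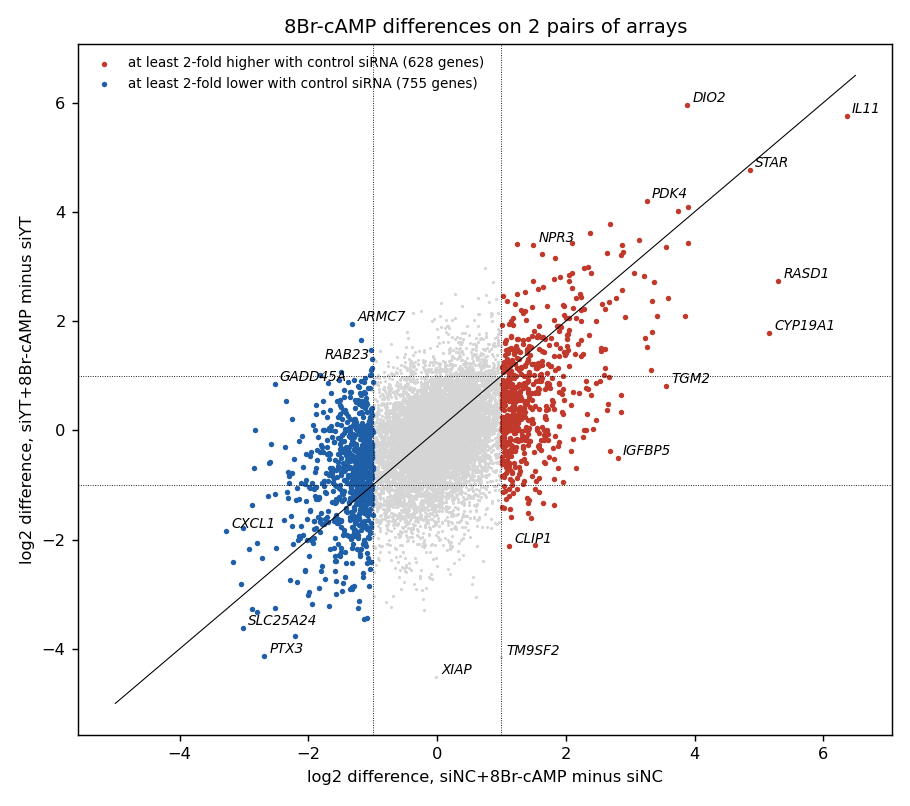
Log2 difference with 8Br-cAMP in the control siRNA pair (horizontal) against that in the YAP/TAZ siRNA pair (vertical) for the 13102 measured genes, with dotted lines at 2-fold. Values below the floor were set to the floor before the differences were taken, in both pairs. IL11 and STAR lie far out in both pairs, whereas GADD45A is lower in one and higher in the other.

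STAR differed by 4.86 with control siRNA and by 4.76 after YAP/TAZ siRNA. For CYP19A1 the levels were 184 and 6558 with control siRNA and 7213 and 24784 after YAP/TAZ siRNA, so the array without the analogue was already high after YAP/TAZ siRNA and the difference there was 1.78. CYP11A1 differed by 3.85 and 2.10, and INHA by 2.23 and 1.65. SIK1, PDE4D and NR4A2 differed by 2.74, 1.82 and 2.45 after YAP/TAZ siRNA.

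The genes whose control siRNA difference most exceeded the other were TM9SF2, XIAP, JUP, CYP19A1, TMEM147-AS1, IGFBP5, RBL2 and CLIP1. In 5 of these, TM9SF2, XIAP, JUP, TMEM147-AS1 and RBL2, the control siRNA difference was not called and the larger difference was in the YAP/TAZ siRNA pair. The array siYT+8Br-cAMP had the highest 3' to 5' ratio for ACTB, and its part in these gaps was not tested. XIAP, an inhibitor of caspases, read 2046 and 2026 with control siRNA but 3212 and 140.4 after YAP/TAZ siRNA, and TM9SF2 read 6669 and 13299 with control siRNA but 16339 and 916 in the other pair. IGFBP5 was 6.99-fold higher with control siRNA and read 2239 and 1586 after YAP/TAZ siRNA, a difference of -0.50. At the other end were GADD45A, ARMC7, PIGW, RAB23, TM7SF2, SYBU, CDCA2 and LRP8. PIGW, an enzyme of membrane-anchor synthesis, was 5.07-fold lower with control siRNA and differed by 0.54 in the other pair, and TM7SF2, a sterol reductase, by -1.69 and 0.86. SYBU and LRP8, a lipoprotein receptor, were not called with control siRNA, at -0.38 and -0.24, but were higher by 2.15 and 2.19 in the other pair.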

How the data were processed

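RNA of 4 KGN cultures was labelled with a 3' IVT kit and hybridised to Affymetrix arrays, 1 array per condition. The deposited value table holds linear intensities, which the authors made with RMA in Affymetrix Expression Console per the submitters' processing notes; their versions are not given in the sources used here. These deposited intensities have nearly the same 2% trimmed mean (500.1) on each array, differ in distribution between arrays and are not on a log scale, so how background and summary were done is not known.

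Gene symbols came from the platform annotation: 41097 probe sets had 1 symbol, 1801 several and 11777 none listed; 41043 matched RefSeq and 0 symbols changed. Columns were matched to arrays by title, and 0 columns of values were left unused. Values below the table's median of 62.6 were set to it before log2, with 1 probe set per gene. A fold against a value at the floor is a lower bound. With 1 array per condition, no test or p-value is given. A size of 2-fold was called, and 25 gene lists are described by counts and medians, and 6 marker lists by counts and summed intensities. The named genes were the 20 highest and 20 lowest above the floor on both arrays, the 8 largest bounds on each side, called list members and uncalled counterexamples, the 8 genes at each end of the gap between pairs, and CYP19A1, STAR, CYP11A1, NR4A2, PDE4D, SIK1, CREM and INHA. The members and lists were chosen with earlier results of these data known. Other floors, probe-set rules, scalings and call sizes were tried.

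Analyses used Python 3.11.15 with pandas 2.3.3, numpy 2.4.6 and scipy 1.17.1, figures matplotlib 3.10.9, and the calling code was tested on simulated data. Promoters are RefSeq entries on GRCh38.p14, of which the 250 bases before each start were searched.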

Additional observations from a re-analysis of the deposited data

Results flagged for a closer look

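For CLIP1, ARMC7, RAB23 and CDCA2, which lie at the ends of the gap between the pairs, the control siRNA pair and the YAP/TAZ siRNA pair were called in opposite directions; with 1 array per condition the difference between the pairs was not tested. CLIP1, which binds growing microtubule ends, differed by 1.12 with control siRNA (1709 and 3709) and by -2.11 after YAP/TAZ siRNA (2406 and 556), and its other probe sets above the floor in siNC differed by 0.45, -0.61 and -1.15 with control siRNA. ARMC7 differed by -1.32 (249.7 and 100.3) and 1.94 (95 and 366), and its other probe set by -0.61 with control siRNA. RAB23, a small GTPase of cilium signalling, differed by -1.82 (2881 and 813) and 1.01 (1902 and 3843), but its other probe sets by 0.60 and 0.05 with control siRNA. CDCA2, a chromatin-bound phosphatase subunit of dividing cells, differed by -1.03 (826 and 406) and 1.47 (136 and 378), and its other probe set by -0.90 with control siRNA. For CLIP1 and RAB23 the direction with control siRNA therefore depends on the probe set. SEMA4C, a semaphorin and one of the genes with a full cAMP response element, also differed in opposite directions, by 1.59 (420.1 and 1264) and -1.14 (672 and 306).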

How the results depend on the processing

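Of the genes called with control siRNA, 628 were higher, 755 lower and 516 passed 2-fold the same way after YAP/TAZ siRNA. Without a floor, all 19775 genes were included and these counts were 3126, 2542 and 1920; with the floor at the 75th percentile of the table (388.7), fewer genes were included and they were 295, 339 and 243. Averaging the probe sets of a gene gave 374, 427 and 283; the cause was not tested. A call size of 1.5-fold gave 1837, 2034 and 1670, and one of 3-fold 197, 164 and 133. With a pseudocount of 50, without probe sets of _s_at, _x_at or _a_at suffix, after quantile normalization and with arrays shifted to one median, each of the 3 counts stayed within 1.5 times its value above. The share of called genes that were higher was 45.4%, against 52.4% with arrays shifted to one median, which moved the median of all genes to 0.07, and 46.5% after quantile normalization. Of 220 named genes, all 220 moved by less than the spread between probe sets after either scaling, but 117 did when probe sets were averaged, and 72 called genes were then under 2-fold. Some list counts fell on averaging as well. On the BMP and TGF-beta list 6 in place of 11 were called higher. The count called lower was 7 in place of 12 for G2 and M phase and 2 in place of 6 for contractile and actin genes. It stayed at 10 for the ATF4 list. The sign turned on averaging for CLIP1 (-0.031), CREBBP (0.065) and PHLDA1 (-0.12), and without the suffixed probe sets for SLC38A4 (0.28), THBS1 (0.15) and KIF23 (0.042). No analysis paired over replicates was possible because each condition had 1 array. Low signal limits the genes below the floor, 51.7% of probe sets in siNC, to bounds.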
